A study of Mus musculus with 75 samples.

Results

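Expression of 8 genes of the mouse lung was followed from day 7 to day 42 after bleomycin injury, out of 55536 genes in the count table. The members were taken by symbol. They are 5 genes of the chitinase family, *Chil1*, *Chil3*, *Chil4*, *Chia1* and *Chit1*, and 3 genes used as standard markers of alternative macrophage activation, *Retnla*, *Arg1* and *Mrc1*. RNA came from the inferior lobe of 75 male C57BL/6JRj mice, with 1 stranded single-end library per mouse. The mice were 12 to 14 weeks old at the start, when bleomycin was given. Age at collection therefore rose with the day and cannot be told apart from it. The day on which control lungs were taken is not given in the sources used here. BLEO-IPF mice had received bleomycin (BLEO), a chemotherapy drug that damages DNA and wounds the alveoli, once into the trachea. They entered the study only if body weight had fallen by 5 to 17% on day 6, so animals outside that range are not represented. CTRL held 10 mice, day 7 also 10, days 14, 21, 28 and 35 12 apiece, and day 42 7. The labels of the CTRL mice name saline, whereas the treatment description calls the controls untreated, so the effect of the instillation itself cannot be told apart from that of BLEO. Lungs had been rinsed for lavage before the lobe was taken, which removes part of the airspace cells.

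Chitinases of glycoside hydrolase family 18 cleave chitin, a polymer of insects, fungi and parasites that mammals do not make. *Chia1* (acidic mammalian chitinase) and *Chit1* (chitotriosidase) encode active enzymes. *Chil1* (BRP-39, the mouse counterpart of human YKL-40), *Chil3* (Ym1) and *Chil4* (Ym2) encode chitinase-like proteins that lack that activity. Interleukin 4 and interleukin 13 act through the receptor subunit IL-4Rα and the transcription factor STAT6 and drive alternative activation of macrophages, for which *Arg1*, *Chil3*, *Retnla* and *Mrc1* are the usual mouse markers. *Arg1* encodes arginase 1, which splits arginine into ornithine and urea, *Retnla* the secreted resistin-like molecule alpha (FIZZ1), and *Mrc1* the endocytic mannose receptor CD206. In the lung several of these genes are also transcribed by epithelial cells.

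In the chitinase family, 3 members lie side by side on chromosome 3 of GRCm38, *Chia1* at 106113229 to 106132120 on the plus strand, *Chil3* at 106147554 to 106167564 and *Chil4* at 106201490 to 106219507, both on the minus strand. *Chit1* (134111242 to 134151540) and *Chil1* (134182176 to 134190181) are neighbours on the plus strand of chromosome 1. *Retnla* lies on chromosome 16 (48842551 to 48844461, plus strand), *Arg1* on chromosome 10 (24915221 to 24927484, minus strand) and *Mrc1* on chromosome 2 (14229392 to 14332057, plus strand), where the microRNA gene *Mir511* lies within it on the same strand.

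The sequences of *Chil3* and *Chil4* are shown because they decide how well reads can be told apart. The coding sequences of transcripts Chil3-201 (1197 bases) and Chil4-201 (1209 bases) of the GENCODE M21 annotation were identical at 1141 of 1209 aligned positions (94.4%), with 12 gap positions. Every other pair of the 5 family members was less alike, from 50.4% for *Chil1* and *Chia1* to 64.8% for *Chil4* and *Chia1*. Of the 1465 stretches of 75 bases, the read length of the study, in the *Chil3* transcript, 125 (8.53%) occurred unchanged in that of *Chil4*, and the longest run shared by the coding sequences was 136 bases. The 90 coding bases with most differences, bases 827 to 916 of both, hold 12 differing positions, given in capitals.
Chil3: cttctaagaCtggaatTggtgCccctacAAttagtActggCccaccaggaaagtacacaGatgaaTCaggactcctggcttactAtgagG
Chil4: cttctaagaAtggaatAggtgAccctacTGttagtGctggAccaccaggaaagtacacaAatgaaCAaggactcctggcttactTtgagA

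The promoters of *Chil3*, *Chil4* and *Retnla* are shown because STAT6 is the factor that interleukin 4 and interleukin 13 act through. STAT proteins bind TTC and GAA separated by a few bases, and STAT6 favours 4 bases between them. Both spacings of 3 and 4 bases were searched in the 250 bases before the RefSeq start (GRCm38.p6), a pattern that reads the same on both strands. RefSeq promoters were at hand for 7 of the 8 members, all but *Arg1*. *Chil3* and *Chil4* held the same match with 3 bases between, and *Retnla* held 1 with 4 bases between. In *Chil1*, *Chia1*, *Chit1* and *Mrc1* these letters were not found in this window. Among all 32851 promoter windows, 7.02% held the spacing of 3 bases and 5.85% that of 4 bases, so the match describes these promoters and marks no proven site. The first 150 of the 250 bases follow, 5′ to 3′ on the gene's strand, with the match in capitals, for *Chil3* at chr3:106167665-106167814, *Chil4* at chr3:106219580-106219729 and *Retnla* at chr16:48842359-48842508.
Chil3: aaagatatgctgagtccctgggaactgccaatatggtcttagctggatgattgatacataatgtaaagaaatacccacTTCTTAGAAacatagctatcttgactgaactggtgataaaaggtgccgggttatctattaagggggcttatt
Chil4: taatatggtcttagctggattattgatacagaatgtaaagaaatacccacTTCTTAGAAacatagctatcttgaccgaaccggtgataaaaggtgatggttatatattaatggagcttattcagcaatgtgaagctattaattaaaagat
Retnla: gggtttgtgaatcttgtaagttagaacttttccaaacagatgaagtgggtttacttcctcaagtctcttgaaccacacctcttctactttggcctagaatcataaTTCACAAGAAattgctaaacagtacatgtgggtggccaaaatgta
Over the 223 bases where the 250-base windows of *Chil3* and *Chil4* align, 201 were identical (90.1%).

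Levels are given as CPM, that is, reads of a gene per 1000000 reads of the library after TMM scaling, and changes as log2 fold change (log2FC) ± SE. The SE was obtained as the absolute log2FC divided by the square root of the F value of its test. A change was called at a Benjamini-Hochberg adjusted p below 0.05 in edgeR's quasi-likelihood test, adjusted over the 16221 genes that passed the filter on low counts. Of the 8 members, 6 passed it. *Chil4* and *Chit1* did not and are described by their counts. Total counts per library ranged from 9240291 to 14665247 (median 10677163), and mitochondrially encoded genes took 0.865 to 2.87% of them. Markers of lung (*Sftpc*, *Sftpb*, *Ager*, *Hopx*, *Scgb1a1* and *Cldn5*) summed to at least 8106 CPM in every library. No batch is named in the labels. In RNA of a whole lobe, fewer cells of a type and less RNA per cell cannot be told apart, which holds for every level below.

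Per kilobase of exon, *Chil1* was the most abundant member in CTRL at a mean level of 266.5 ± 28.1 CPM per kb (SD, n = 10). *Chil3* followed at 214 ± 86.0, *Retnla* at 55.4 ± 15.7, *Chia1* at 45.2 ± 10.3, *Mrc1* at 11.3 ± 1.04 and *Arg1* at 0.866 ± 0.393, whereas *Chil4* (0.0337) and *Chit1* (0.0112) were nearly absent. The means of *Chil1* and *Chil3*, and those of *Retnla* and *Chia1*, differed by less than the larger SD of each pair. On day 7 *Retnla* led at 1492 ± 497 CPM per kb (SD, n = 10). On day 42 *Chil3* (526.3 ± 237) and *Chil1* (404 ± 67.4) stood first again (SD, n = 7), with overlapping spreads.

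**Figure D1:**
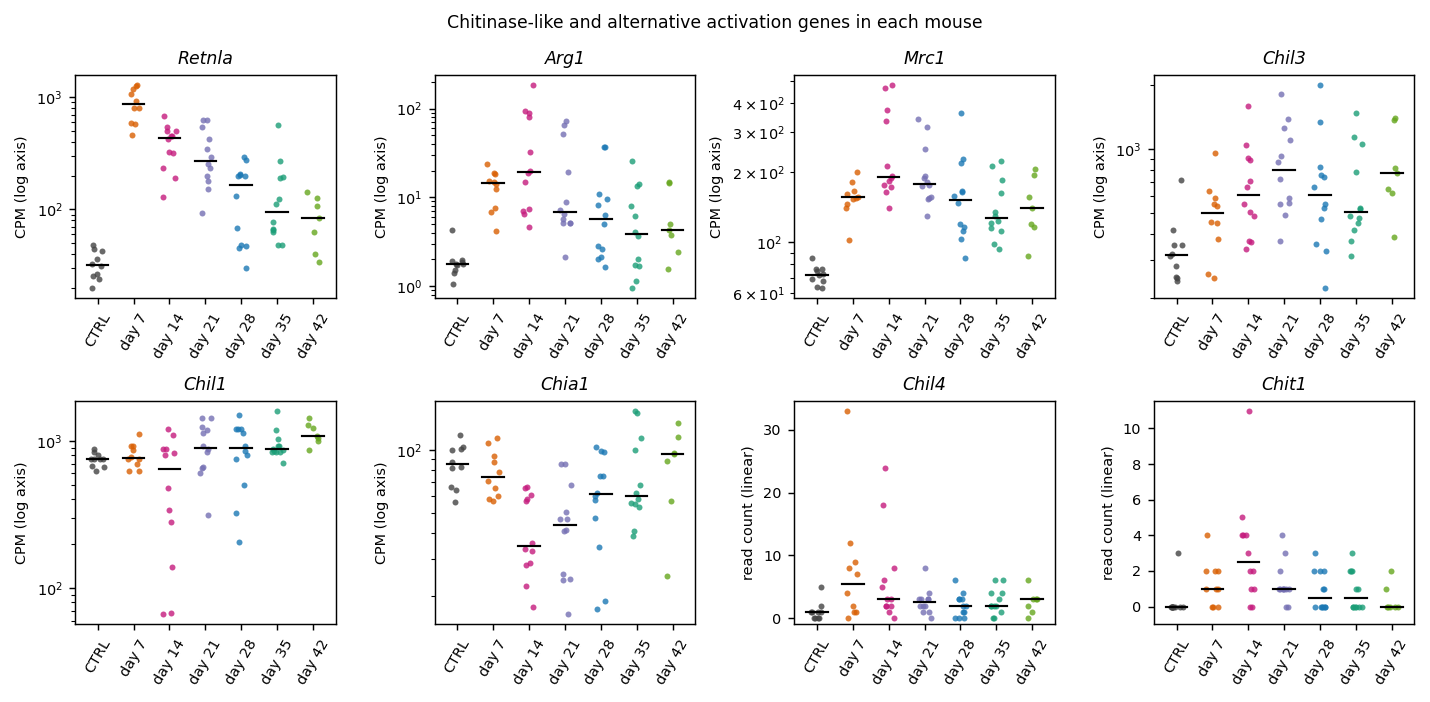
Level of each of the 8 genes in every mouse, by group (x axis), with 1 point per mouse and a line at the group median. The y axis is CPM on a log axis for 6 genes and the read count on a linear axis for *Chil4* and *Chit1*. All day 7 mice lie above all CTRL mice for *Retnla* and *Mrc1*, and the 12 day 14 mice spread from 66.5 to 1196 CPM for *Chil1*.

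The 3 markers of alternative activation all rose, with different time courses. *Retnla* was highest on day 7, at a mean 893.6 CPM against 33.2 in CTRL, and lower on every later day. *Arg1* and *Mrc1* were highest on day 14. *Chil3* was called from day 14 onwards and was still called on day 42. *Chia1* fell on days 14 and 21 and was not called from day 28 onwards, and *Chil1* passed the test against CTRL on no day.

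Against CTRL, 3 of the 6 members tested were called higher on day 7 and 0 lower, where 24.8% of all genes tested were called higher and 21% lower. On day 14 the counts were 4 higher and 1 lower (32.4% and 29.9% of all genes), and on day 21 again 4 and 1 (28.3% and 25.8%). On day 28 4 were higher and 0 lower (24.1% and 19.2%), on day 35 4 and 0 (16.9% and 13.1%), and on day 42 3 and 0 (13.7% and 11%). The median log2FC of the 6 members was 0.83 on day 7, 1.42 on day 14 and 1.16 on day 42, beside 0.00, 0.01 and 0.01 over all genes tested. Between consecutive days, 4 of 6 members were called from day 7 to day 14, 2 in each direction, when 17% of all genes were (1538 higher and 1225 lower, but 1202 and 1631 with library size as the only scaling). None was called from day 14 to 21 (1.03% of genes), 21 to 28 (0.727%), 28 to 35 (1.27%) or 35 to 42. For that last pair edgeR called 0% of genes, with 957 at an unadjusted p under 0.05, and DESeq2 called 0. Between days 14 and 42, 5 of 6 members were called, 2 higher and 3 lower on day 42, against 34% of all genes.

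**Figure D2:**
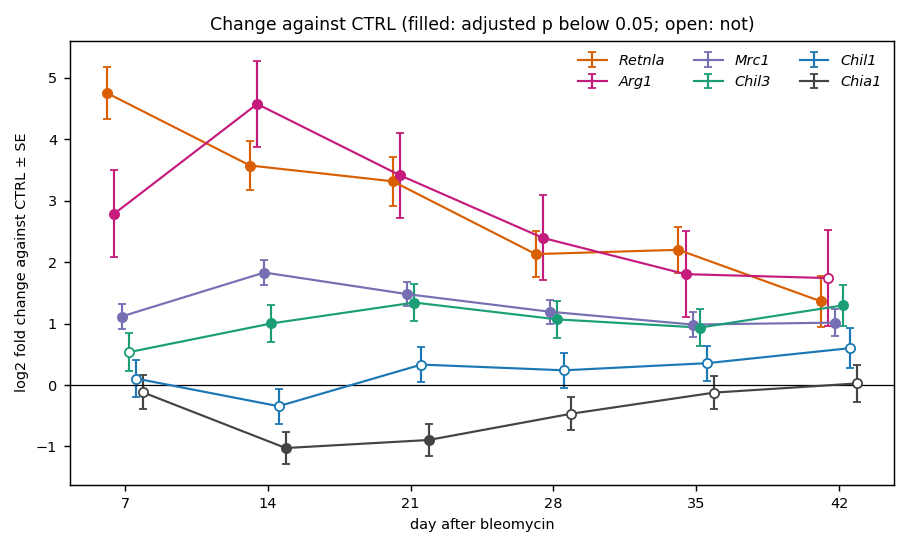
Log2 fold change against CTRL of the 6 genes tested (y axis) by day after bleomycin (x axis). Bars give the SE obtained from the F value of the test, and points are shifted sideways for clarity. Filled points passed an adjusted p of 0.05 in edgeR. *Retnla* is highest on day 7 (4.75), *Arg1* on day 14 (4.57), and *Chia1* lies lowest on day 14 (-1.03).

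*Retnla* ranged from 20.02 to 47.9 CPM in the 10 CTRL mice (median 32.1). On day 7 it ranged from 458 to 1294 CPM (median 865), and on day 14 from 128 to 679 (median 438). On day 21 it lay between 93.0 and 631 CPM (median 272). All mice of these 3 days stood above all CTRL mice. The levels were 29.8 to 296 CPM on day 28 (median 165), 48.6 to 570 on day 35 (median 94.9) and 33.7 to 143 on day 42 (median 84.4). All 12 mice of day 35 were still above the CTRL range, whereas on day 28 and day 42 the groups overlapped, with 8 of 12 and 5 of 7 mice above it. The log2FC was 4.75 ± 0.43 on day 7 (edgeR adjusted p = 2.23e-14), 3.57 ± 0.40 on day 14 (adjusted p = 9.07e-12) and 3.32 ± 0.40 on day 21 (adjusted p = 1.28e-10). It was 2.13 ± 0.38 on day 28, 2.20 ± 0.38 on day 35 and 1.36 ± 0.41 on day 42 (adjusted p = 0.0106), all called. The fall from day 7 to day 14 was itself called (log2FC -1.18 ± 0.35, adjusted p = 0.0129), as was that from day 14 to day 42 (-2.21 ± 0.43, adjusted p = 5.15e-05). In order of mean log2 CPM, day 7 exceeded day 14, day 21 exceeded day 35 and day 42 exceeded CTRL by more than the larger SD of each pair. The neighbours in between did not.

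*Arg1* was scarce in CTRL, with 1.04 to 4.29 CPM (median 1.79). It rose to between 4.18 and 23.6 CPM on day 7 (median 14.5) and to between 4.59 and 186 on day 14 (median 19.5). On day 21 it ranged from 2.12 to 71.8 CPM (median 6.86). All 12 mice of day 14 lay above the CTRL range, with a 40.5-fold span among themselves, as did 9 of 10 on day 7 and 11 of 12 on day 21. The later groups held 1.64 to 37.04 CPM on day 28 (median 5.66), 0.955 to 25.6 on day 35 (median 3.83) and 1.54 to 14.9 on day 42 (median 4.24). In each of them the mice divided, with 7 of 12, 5 of 12 and 3 of 7 above all CTRL mice. The log2FC was 2.79 ± 0.70 on day 7 (edgeR adjusted p = 8.10e-04), 4.57 ± 0.70 on day 14 (adjusted p = 6.79e-08), 3.41 ± 0.69 on day 21 and 2.40 ± 0.69 on day 28 (adjusted p = 0.00363). On day 35 it was 1.81 ± 0.70 (adjusted p = 0.0419), a call that was lost in 13 of 22 refits that each left out 1 mouse (adjusted p up to 0.131, left out were 9 CTRL mice and day 35 replicates 6, 7, 8 and 9). On day 42 it was 1.74 ± 0.78 and not called (adjusted p = 0.0896). *Arg1* rose from day 7 to day 14 (log2FC 1.78 ± 0.57, adjusted p = 0.0225) and fell by 2.83 on the log2 scale from day 14 to day 42 (SE 0.71, adjusted p = 0.00132). Its SD of log2 CPM on day 14, 1.78, was larger than that of 99.8% of the genes tested. No neighbouring groups in the order of its means differed by more than the larger SD of the pair.

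*Mrc1* ranged from 63.3 to 85.3 CPM in CTRL (median 72.03), a 1.35-fold span and the smallest ratio of highest to lowest among the 6 members tested. It ranged from 103 to 201 CPM on day 7 (median 156), from 140 to 480 on day 14 (median 191) and from 129 to 340 on day 21 (median 179). The ranges were 85.4 to 360 CPM on day 28 (median 152), 92.9 to 224 on day 35 (median 126) and 87.0 to 207 on day 42 (median 140). Every BLEO-IPF mouse of every day stood above all CTRL mice, which held for no other member. The log2FC was 1.12 ± 0.21 on day 7, 1.83 ± 0.20 on day 14 (edgeR adjusted p = 6.11e-12), and 1.48 ± 0.20 on day 21. It stayed called, at 1.19 ± 0.20 on day 28 and 0.98 ± 0.20 on day 35, and was 1.02 ± 0.22 by day 42 (adjusted p = 3.92e-04). It rose from day 7 to day 14 by 0.72 ± 0.19 (adjusted p = 0.00698) and differed between days 14 and 42 by -0.82 ± 0.22 (adjusted p = 0.0028).

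*Chil3*, which encodes a secreted lectin of macrophages, ranged from 240.5 to 716 CPM in CTRL (median 317.5). The highest CTRL mouse, replicate 2, stood apart from the next at 415 CPM. Levels were 248 to 958 CPM on day 7 (median 498), 340 to 1589 on day 14 (median 608) and 371 to 1829 on day 21 (median 798). They were 222 to 2013 CPM on day 28 (median 608), 313 to 1484 on day 35 (median 505) and 384 to 1396 on day 42 (median 772). The groups overlapped CTRL on every day, with at most 7 of 12 mice above its range, on day 21. The log2FC was 0.53 ± 0.30 on day 7 and not called (edgeR adjusted p = 0.145). In a fit of only CTRL and day 7 it was called (adjusted p = 0.0394), and days 14 and 7 were not called apart (0.47 ± 0.29, adjusted p = 0.282). It was 1.00 ± 0.30 on day 14 (adjusted p = 0.00261), 1.34 ± 0.30 on day 21 (adjusted p = 1.23e-04), 1.07 ± 0.30 on day 28, 0.94 ± 0.30 on day 35 and 1.30 ± 0.33 on day 42 (adjusted p = 0.00259). From day 14 to day 42 the difference was 0.29 ± 0.32 (adjusted p = 0.5). Without CTRL replicate 2 the log2FC was 0.70 ± 0.31 on day 7 (adjusted p = 0.0543) and 1.17 ± 0.30 on day 14.

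*Chil4* held 0 to 5 reads per CTRL mouse (median 1) and at most 33 on day 7 (median 5.5), 24 on day 14 (median 3) and 8 on any later day. In CTRL 4 of 10 mice had none. Reads of *Chil4* made up a median of 0.273 per 1000 reads of *Chil3* in CTRL, 0.875 on day 7, with a highest value of 6.03, and 0.381 on day 14. In a fit without the filter, *Chil4* was called on day 7 (edgeR adjusted p = 0.00117) and day 14 (adjusted p = 0.0026) and on no other day. No fold is given, since the group medians lay near the floor of 3 reads. How reads that match both genes were counted is not given in the sources used here, so the split between them is uncertain. Adding the counts of both genes left every call of *Chil3* as it was. With so few *Chil4* reads the sum could hardly differ, so it does not show how shared reads were counted.

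*Chit1* had no read in 9 of 10 CTRL mice and 3 in the other. It reached at most 4 reads on day 7 (median 1) and 11 on day 14 (median 2.5), when 10 of 12 mice had at least 1 read. On days 21 to 42 at most 4 reads were counted per mouse. A count of 0 allows up to 3 reads at this depth, so a single mouse with 3 reads or fewer cannot be told apart from one with 0. The test compares groups of mice. Without the filter *Chit1* was called on day 14 against CTRL (edgeR adjusted p = 5.60e-04) and lower on day 42 than on day 14 (adjusted p = 0.0208).

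*Chia1* ranged from 56.2 to 117 CPM in CTRL (median 85.1) and from 56.8 to 114 on day 7 (median 74.6), so these groups overlapped fully. It ranged from 17.6 to 66.5 CPM on day 14 (median 34.8), from 16.3 to 86.0 on day 21 (median 43.9) and from 17.3 to 103 on day 28 (median 61.2). On day 35 it held 38.7 to 154 CPM (median 60.1) and on day 42 24.9 to 135 (median 95.8). On day 14 7 of 12 mice lay below all CTRL mice, as did 9 of 12 on day 21, 4 of 12 on day 28, 5 of 12 on day 35 and 1 of 7 on day 42. The log2FC was -0.12 ± 0.28 on day 7, -1.03 ± 0.27 on day 14 (edgeR adjusted p = 6.51e-04) and -0.89 ± 0.27 on day 21 (adjusted p = 0.00335). It was not called afterwards, with -0.47 ± 0.26 on day 28 (adjusted p = 0.148), -0.12 ± 0.26 on day 35 and 0.03 ± 0.30 on day 42 (adjusted p = 0.962). The fall from day 7 to day 14 was called (-0.91 ± 0.27, adjusted p = 0.0124), and so was the rise from day 14 to day 42 (1.05 ± 0.29, adjusted p = 0.00335). Marker sums of airway cells are given beside it, and their part in the level of *Chia1* was not tested. Those of ciliated cells had a median of 557 CPM in CTRL, 339.9 on day 7, 207 on day 14 and 419 on day 42, and those of club and secretory cells 26112, 15757, 7143 and 15712. Most of the club and secretory sum was *Scgb1a1*, at a mean of 22073 CPM in CTRL. Called lower than in CTRL were 1, 5 and 1 of 5 ciliated markers on days 7, 14 and 42, and 0 were higher. For 7 club and secretory markers the counts were 2, 3 and 0 lower, with 0, 1 and 1 higher. Of all genes tested, 21%, 29.9% and 11% were called lower on these days and 24.8%, 32.4% and 13.7% higher.

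*Chil1* lay between 622 and 873 CPM in CTRL (median 751) and between 624 and 1108 on day 7 (median 763). On day 14 it spread from 66.5 to 1196 CPM (median 641), a 17.98-fold span. Of those 12 mice 4 stood above all CTRL mice and 6 below them, and only 2 lay within the CTRL range. The SD of log2 CPM on that day, 1.52, was larger than that of 99.6% of the genes tested, against 43.8% in CTRL. The levels were 314 to 1435 CPM on day 21 (median 897), 206 to 1500 on day 28 (median 888), 704 to 1594 on day 35 (median 877) and 872 to 1426 on day 42 (median 1078). On day 42 6 of 7 mice were above the CTRL range. The log2FC against CTRL was -0.34 ± 0.28 on day 14 (edgeR adjusted p = 0.288) and 0.60 ± 0.32 on day 42 (adjusted p = 0.166), and not called on any day. In a fit of only CTRL and day 42, where the wide spread of the other days does not enter, day 42 was called (adjusted p = 1.72e-05), and so was day 35 in its own fit (adjusted p = 0.00687). Day 42 exceeded day 14 by 0.94 ± 0.31 (adjusted p = 0.0131), a call that was lost in a fit of those groups alone (adjusted p = 0.111).

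The mice of one day were then compared with each other. Correlations were computed over 75 mice on log2 CPM with each group's mean removed, so that a shared time course gives none, with 15 pairs of members and 2-sided permutation tests within groups. The smallest p these permutations can give is 1e-05. *Arg1* and *Mrc1* moved together most closely (r = 0.85, rho = 0.82, adjusted permutation p of both 3e-05, r = 0.84 without the 2 mice farthest from the median). *Chil3* followed *Mrc1* (r = 0.74, rho = 0.64, adjusted permutation p of both 3e-05, r = 0.69 without 2 mice). *Chil1* ran against *Mrc1* (r = -0.60, rho = -0.40, adjusted permutation p = 3.33e-05 and 0.00194, r = -0.50 without 2 mice) and against *Arg1* (r = -0.58, rho = -0.41, adjusted permutation p = 3e-05 and 0.0016, r = -0.52 without 2 mice). *Chia1* ran against *Mrc1* as well (r = -0.53, rho = -0.54, adjusted permutation p = 3.33e-05 and 4.29e-05, r = -0.50 without 2 mice). No relation was detected between *Chil1* and *Retnla* (r = 0.01, rho = -0.05, adjusted permutation p = 0.92 and 0.698, r = -0.11 without 2 mice).

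These relations were split into day 14 (12 mice) and the other groups (63 mice) after the values had been seen, for 27 relations in each part. The other groups were pooled, and no relation was computed within a single one of them. On day 14 *Chil1* ran closely against *Mrc1* (r = -0.96, rho = -0.90, adjusted permutation p = 1.35e-04 and 8.77e-04, r = -0.90 without 2 mice). In the other groups that relation was weak (r = -0.35, rho = -0.18, adjusted permutation p = 0.0348 and 0.221, r = -0.22 without 2 mice). With *Arg1*, *Chil1* gave r = -0.92 on day 14 (rho = -0.90, adjusted permutation p = 1.62e-04 and 8.1e-04, r = -0.92 without 2 mice). In the other groups that relation was weak as well (r = -0.38, rho = -0.17, adjusted permutation p = 0.0146 and 0.264, r = -0.18 without 2 mice). On day 14 the 2 mice with the lowest *Chil1*, 66.5 and 67.3 CPM, held 462 and 480 CPM of *Mrc1*, and the mouse with the highest *Chil1*, 1196 CPM, held 140. On day 21 the mouse with the lowest *Chil1*, 314 CPM, held 315 of *Mrc1*, and the mouse with the highest, 1435 CPM, held 156. On day 28 these mice had 206 CPM of *Chil1* with 229 of *Mrc1*, and 1500 with 167. The SD of log2 CPM of *Chil1* was 0.63 on day 21 and 0.86 on day 28. In CTRL and on days 7, 35 and 42 it lay between 0.15 and 0.30. *Retnla* and *Mrc1* were related in the other groups (r = 0.71, rho = 0.75, adjusted permutation p = 2.08e-05 and 2.7e-05, r = 0.70 without 2 mice). On day 14 they were not detectably related (r = -0.27, rho = -0.06, adjusted permutation p = 0.655 and 0.975, r = -0.06 without 2 mice). *Chia1* and *Mrc1* gave r = -0.71 in the other groups (rho = -0.69, adjusted permutation p = 2.08e-05 and 2.7e-05, r = -0.70 without 2 mice) and r = 0.07 on day 14 (rho = -0.12, adjusted permutation p = 0.899 and 0.975, r = -0.28 without 2 mice). The differences between day 14 and the other groups were not tested.

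**Figure D3:**
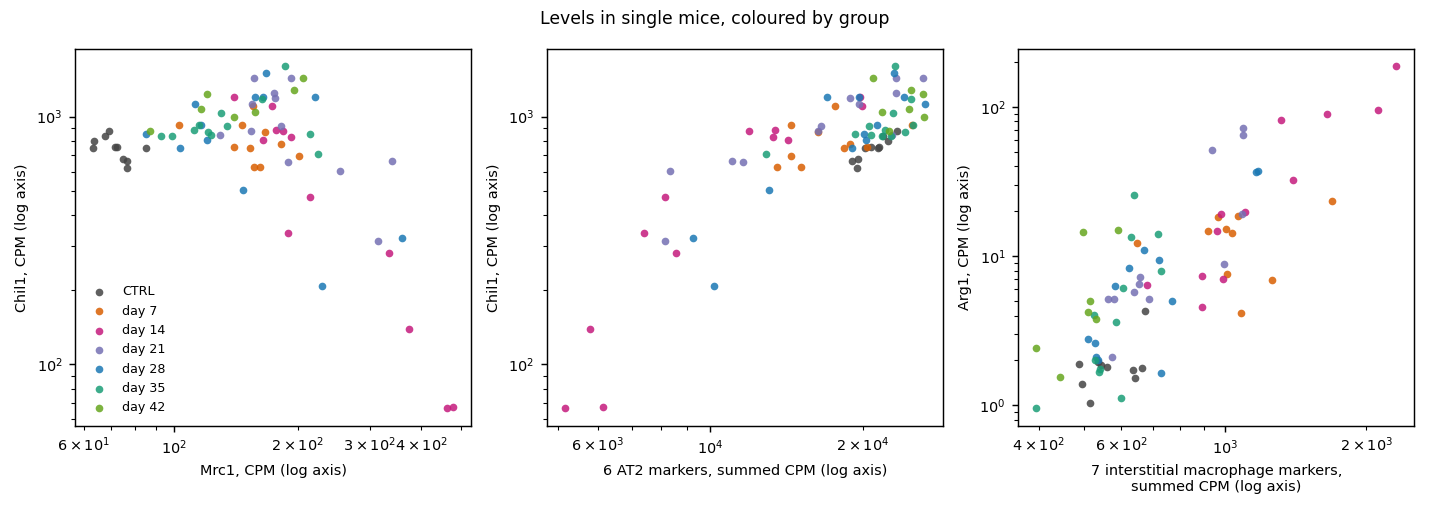
Each point is 1 of 75 mice, coloured by group, on log axes. From left to right, *Chil1* against *Mrc1*, *Chil1* against the summed level of 6 alveolar type 2 (AT2) markers, and *Arg1* against that of 7 interstitial macrophage markers, all in CPM. The lowest *Chil1* levels, 66.5 and 67.3 CPM, belong to day 14 mice that are low in AT2 markers and high in *Mrc1*.

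Marker lists of cell types were set beside the members, as the mean log2 CPM of each list with the group mean removed, over 78 relations. *Chil1* went with markers of AT2 cells, the surfactant-producing cells of the alveolus (r = 0.88, rho = 0.80, adjusted permutation p = 3.12e-05 and 3.9e-05, r = 0.88 without 2 mice). That relation was present on day 14 (r = 0.93, rho = 0.90, adjusted permutation p = 1.35e-04 and 8.1e-04, r = 0.95 without 2 mice) and in the other groups (r = 0.85, rho = 0.72, adjusted permutation p = 2.08e-05 and 2.7e-05, r = 0.77 without 2 mice). The summed AT2 markers ranged from 18985 to 23362 CPM in CTRL, from 5162 to 19909 on day 14 and from 20915 to 26386 on day 42. *Mrc1* and *Arg1* went with markers of interstitial macrophages (*Lyve1*, *Folr2*, *Cd163*, *C1qa*, *C1qb*, *C1qc* and *Cx3cr1*), with r = 0.83 for *Mrc1* (rho = 0.81, adjusted permutation p = 3.12e-05 and 3.9e-05, r = 0.80 without 2 mice) and r = 0.81 for *Arg1* (rho = 0.77, the same adjusted permutation p, r = 0.79 without 2 mice). *Retnla* was most related to macrophages in general (r = 0.66, rho = 0.65, adjusted permutation p = 3.12e-05 and 3.9e-05, r = 0.63 without 2 mice). *Chil3* was about as closely related to macrophages in general (r = 0.57, rho = 0.52, the same adjusted permutation p, r = 0.51 without 2 mice) as to interstitial macrophages (r = 0.57, rho = 0.46, adjusted permutation p = 3.12e-05 and 5.03e-04, r = 0.50 without 2 mice). The lymphatic endothelium list, which also holds *Lyve1*, came as close to *Chil3* (r = 0.56, rho = 0.49, adjusted permutation p = 5.78e-05 and 1.62e-04, r = 0.48 without 2 mice). *Chia1* went with ciliated cell markers (r = 0.62, rho = 0.56, adjusted permutation p = 3.12e-05 and 7.43e-05, r = 0.58 without 2 mice) and against those of monocytes and lipid-associated macrophages (r = -0.67, rho = -0.68, adjusted permutation p = 3.12e-05 and 3.9e-05, r = -0.63 without 2 mice). The list of lung markers came about as close to *Chia1* (r = 0.57, rho = 0.62, adjusted permutation p = 5.78e-05 and 3.9e-05, r = 0.57 without 2 mice). AT2 markers were also related to it (r = 0.36, rho = 0.43, adjusted permutation p = 0.00885 and 9.65e-04, r = 0.39 without 2 mice). With club and secretory cell markers no relation of *Chia1* was detected (r = 0.18, rho = 0.12, adjusted permutation p = 0.238 and 0.397, r = 0.11 without 2 mice). The lists share libraries and depth with the members, and the part of each cell type in a member's change was not tested.

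**Figure D4:**
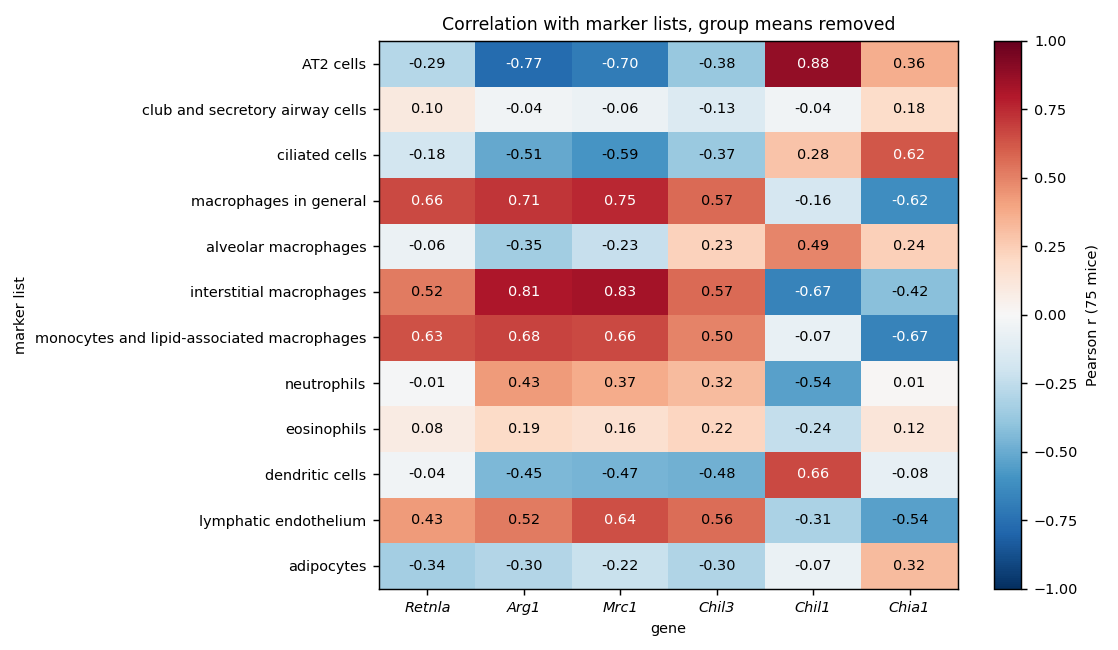
Pearson correlation over 75 mice, with group means removed, between 6 genes (x axis) and 12 marker lists (y axis). The colour runs from blue (-1) through white to red (1), and each cell prints its r. *Chil1* reaches 0.88 with AT2 cell markers, where *Arg1* (-0.77) and *Mrc1* (-0.70) are negative.

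The macrophage lists are given with the genes that dominate their sums, and their part in the members' changes was not tested. Of all genes tested, 32.4% were called higher and 29.9% lower on day 14, and 13.7% and 11% on day 42. Of 7 markers of macrophages in general, 5 were called higher than CTRL on day 14 and 5 on day 42, with a median log2FC of 1.02 and 0.72. Their sum had a median of 5760 CPM in CTRL, 6439 on day 14 and 9115 on day 42, but most of it was *Lyz2*, a lysozyme gene, at a mean of 5537 CPM in CTRL. From day 14 to day 42 *Lyz2* rose (log2FC 0.60), whereas *Csf1r* (-0.49), *Adgre1* (-0.85) and *Fcgr1* (-1.50) fell. The sum of the interstitial macrophage markers stood at 551, 1045 and 510.1 CPM, of which *Lyve1*, also a lymphatic marker, held a mean of 446 CPM in CTRL and 202 on day 42 (log2FC -1.14). On day 42 *C1qa* (1.41), *C1qb* (1.60), *C1qc* (1.41) and *Cx3cr1* (0.72) were still called higher, and the median of that list was 1.65 on day 14 and 0.72 on day 42. The sums were 611, 3846 and 2039 CPM for monocytes and lipid-associated macrophages (*Ly6c2*, *Ccr2*, *Spp1*, *Gpnmb*, *Trem2*, *Cd9*, *Mmp12* and *Fabp5*). Most of the CTRL sum was *Cd9*, at a mean of 401 CPM and not called on day 14. Most of the day 14 sum was *Spp1*, at a mean of 3412.5 CPM against 69.4 in CTRL. Of these 8 markers, 5 were called higher on day 14 and 0 lower. The 9 alveolar macrophage markers summed to 318, 306 and 369 CPM, of which *Car4* held a mean of 164 CPM in CTRL. On day 14 4 of them were called lower, *Fabp1* (log2FC -3.93 ± 0.51), *Krt79* (-3.38 ± 0.41), *Ear1* (-2.46 ± 0.27) and *Car4* (-0.83 ± 0.16). On that day 2 of them were called higher, *Marco* (1.63 ± 0.45) and *Atp6v0d2* (1.61 ± 0.21). Whether the *Car4* RNA came from macrophages was not tested. The 5 eosinophil markers together reached at most 10.7 CPM in any mouse. Of these, *Epx*, eosinophil peroxidase, was at 3 reads or fewer in every mouse, and *Ccr3* was too low to test. *Prg2*, the major basic protein, was called higher on day 28 (log2FC 2.60), day 35 (3.68) and day 42 (2.72). *Ear6*, one of a family of similar ribonuclease genes whose reads may be split uncertainly, was called higher on every day (2.09 to 3.35). It held 3 reads or fewer in every CTRL mouse, so the size of these changes is uncertain. *Il5ra* was called lower on day 14 (-1.31) and day 21 (-0.91).

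For each member tested, the 3 genes with the highest r over the same 75 mice are named as a description. *Chil1* was most like *Lamp3* (r = 0.93), a lamellar body gene that the AT2 list also holds, *Egfl6* (0.92) and *Hc* (0.92), which encodes complement C5. *Chil3* was most like *Ms4a8a* (0.86), *Ctsh* (0.80), which encodes cathepsin H, and *Blvra* (0.76), biliverdin reductase A. For *Mrc1* they were *Clcn5* (0.92), *Dab2* (0.91), an endocytic adaptor, and *Gda* (0.91), guanine deaminase. For *Arg1* they were *Ccr1* (0.90), a chemokine receptor, *Timp1* (0.90), an inhibitor of matrix metalloproteinases, and *Uck2* (0.89). *Retnla* was most like *Tmem176a* (0.75), *Tceal9* (0.74) and *S100a11* (0.74), and *Chia1* most like *Ptgs2os2* (0.79), *Gsn* (0.78), which encodes gelsolin, and *Igfbp6* (0.76). No member was among the 3 genes most like another.

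Of 14 genes of arginine and polyamine metabolism, the pathways that arginase feeds, 8 were called higher and 1 lower on day 7. On day 14 the counts were 12 and 1 and by day 42 they were 6 and 0, with a median log2FC on day 14 of 0.61 against 0.01 over all genes. Of all genes tested, 24.8% were called higher and 21% lower on day 7. These shares were 32.4% and 29.9% on day 14 and 13.7% and 11% on day 42. The largest on day 14 were *Pycr1* (1.61) and *Aldh18a1* (1.16), which act in the synthesis of proline, *Nos2* (1.39), which turns arginine into nitric oxide, and *Srm* (0.82), spermidine synthase. *Nos2* is also a marker of classical activation. Its log2FC was 1.51 on day 42 (edgeR adjusted p = 1.98e-05), and days 42 and 14 differed by 0.12 (adjusted p = 0.736). *Arg2*, the mitochondrial arginase, was called on every day, from 0.63 on day 14 to 0.88 on day 7.

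Of 21 listed upstream genes of the type 2 response 16 were tested, and on day 14 5 were called higher, 2 lower and 9 not, beside 32.4% and 29.9% of all genes called higher and lower. *Il4*, *Il5*, *Il13*, *Il25* and *Il13ra2* stayed under the filter, with at most 3, 6, 3, 1 and 6 reads in any mouse. The receptor subunits *Il4ra* (log2FC 1.36, edgeR adjusted p = 1.69e-12) and *Il13ra1* (0.88), *Socs1* (0.86), a feedback inhibitor, and *Jak3* (0.68) rose most on day 14. *Stat6* itself was called lower on day 14 (-0.20, adjusted p = 2.40e-06), at a mean of 145 CPM against 167 in CTRL.

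Of 20 other listed genes of alternative activation, 16 were called higher and 1 lower on day 7. On day 14 the counts were 17 and 2, and by day 42 11 and 2. Of all genes tested, 24.8%, 32.4% and 13.7% were called higher on these days and 21%, 29.9% and 11% lower. The median log2FC of the 20 genes was 1.25, 1.62 and 0.84. *Mmp12* (5.09), a macrophage elastase, *Msr1* (4.36), a scavenger receptor, *Trem2* (4.28), a lipid receptor, and *Ccl8* (3.63), a chemokine, led on day 14. Of 12 genes of classical activation, 8 were called higher and 1 lower on day 7. On day 14 the counts were 9 and 1, and by day 42 8 and 1, beside the same shares of all genes. *Cxcl9* (3.86) and *Cxcl10* (3.50), chemokines that interferon gamma induces, *Il6* (3.62) and *Il12b* (2.16) led on day 14. The lists of alternative and classical activation both moved mainly upwards in these lobes.

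Relatives and partners of the members were few. Of the other 5 genes of the family, *Chid1*, *Ctbs* and *Ovgp1* were tested and only *Chid1* was called on day 14 (log2FC 0.29). Among the resistin family *Retnlg*, a gene of neutrophils, rose on day 14 (1.87, edgeR adjusted p = 5.05e-05) and was not called on the other days against CTRL. Beside *Mrc1*, the collagen receptor *Mrc2* was higher on day 14 (1.12) and *Pla2r1* lower (-0.69). Of 5 proposed receptors and partners of *Chil1*, *Lgals3* (1.5), *Cd44* (0.79) and *Tmem219* (0.24) were called on day 14, *Ptgdr2* was not, and *Il13ra2* was too low to test. On that day 32.4% of all genes tested were called higher and 29.9% lower.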

How the data were processed

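RNA of the inferior lung lobe was sequenced from 75 mice. The authors deposited raw counts per gene, made from stranded single-end libraries by alignment to GRCm38 (Ensembl release 96) with STAR 2.7.0f. The counting program and its handling of strand and of multiply mapped reads are not given in the sources used here. All 55536 identifiers matched the GENCODE M21 annotation. Levels between genes were compared per kilobase of exon.

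Members and gene lists were chosen with earlier results of these data known. Named in each list were up to 4 called genes with the largest change on day 14, beside the 3 genes most like each member. *Nos2* on day 42, *Arg2*, *Stat6*, *Ctbs*, *Ovgp1*, *Ptgdr2*, *Cd9*, *Car4* and *Atp6v0d2*, and the genes of the last part, were named after their values were seen.

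One model over all mice, with a mean per group, gave 12 contrasts in edgeR 4.0.16 (R 4.3.3; quasi-likelihood F test, TMM factors, filterByExpr, Benjamini-Hochberg adjustment over 16221 genes). CPM and log2 CPM (prior count 2) served for levels and correlations, with 100000 permutations within groups. The steps were tested on counts with known changes. Nothing says that mice of a group differed in litter or cage, so p-values measure the spread between these mice. Intervals and floors (3 reads) cover counting error only. Alternatives were DESeq2 1.42.0, library size or upper quartile scaling, no filter, at least 10 counts in every mouse, a block for the replicate number, a fit restricted to the groups compared, an absolute log2FC of at least 0.5, *Chil3* and *Chil4* added, the longest transcript as gene length, and each mouse left out. Protein identity had been planned and was replaced by identity of coding sequences. One planned marker of interstitial macrophages is not reported here and is left out of that list.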

Additional observations from a re-analysis of the deposited data

Results flagged for a closer look

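In groups of 4 to 10 mice, the gap between the most extreme mouse and its neighbour was compared with Dixon's 95% critical value. Of 18 groups of members, 2 exceeded it, and chance gives about 1 in 20. Both were the same mouse, CTRL replicate 2, with 716 CPM of *Chil3* (next mouse 415) and 4.29 CPM of *Arg1* (next mouse 1.97). Without it the log2FC of *Arg1* on day 35 was 2.02 ± 0.75 (edgeR adjusted p = 0.0334) and on day 42 1.95 ± 0.82 (adjusted p = 0.0692), and no call of *Chil3* changed.

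The effect of BLEO differed between days in 9 cases by the test of the difference itself. From day 7 to day 14 the log2FC was 1.78 for *Arg1*, 0.72 for *Mrc1*, -1.18 for *Retnla* and -0.91 for *Chia1*. From day 14 to day 42 it was -2.83 for *Arg1*, -0.82 for *Mrc1*, -2.21 for *Retnla*, 1.05 for *Chia1* and 0.94 for *Chil1*. Marker sums of macrophages and epithelium moved between the same days, and their part was not tested.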

How the results depend on the processing

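Each of 72 tested changes (6 members, 12 contrasts) was refitted under up to 8 alternatives. DESeq2 and a fit of only the groups compared made the call of *Arg1* on day 42 (adjusted p = 0.0359 and 0.00134), and no filter ended that on day 35 (0.0748). Only the groups compared also called *Chil3* on day 7 (0.0394) and *Chil1* on days 35 and 42, so that 5 members were called on day 42 in place of 3, and ended the call of *Chil1* between days 42 and 14 (0.111). With the replicate block the difference of *Mrc1* between days 42 and 35 was -0.025 in place of 0.03, neither called, and no other direction or call changed. Replicate numbers gave no pairing (median r of 204 same-number pairs -0.0083, 56 above 0.1, 8 of 75 mice closest to their own number). Leaving out 1 mouse gave *Chia1* on day 42 a log2FC of -0.119 to 0.182. Over all genes, calls from day 14 to 21 were 167, and 0 with only the groups compared to 304 with DESeq2, from day 21 to 28 118 (1 to 143) and from day 28 to 35 206 (0 to 327). *Arg1* could not be fitted with at least 10 counts in every mouse. With the longest transcript as length, the CTRL level was 406 CPM per kb for *Chil1*, 1.31 for *Arg1* and 13.4 for *Mrc1*. With that length the CTRL means of *Chil1* (406 ± 42.9) and *Chil3* (227 ± 91.2) differed by more than the larger SD. On day 42 *Chil1* (616 ± 103) then stood above *Chil3* (558 ± 251), with overlapping spreads. Depth limits *Chil4*, *Chit1* and the type 2 cytokines.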

Other observations

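Some genes around the members kept time courses of their own and were picked after their values were seen. *Il33*, an alarmin that drives type 2 responses, was called higher on day 7 (log2FC 1.21, edgeR adjusted p = 2.28e-05), as were 24.8% of all genes tested. On day 14 its log2FC was 0.19 (adjusted p = 0.465). *Retnla* was also highest on day 7, and a relation between *Il33* and *Retnla* was not tested. *Cd163*, a haemoglobin scavenger receptor, was called on days 7 (1.11) and 14 (1.55) and lay at 0.19 on day 21 and -0.84 on day 42 (adjusted p = 0.0548), unlike *Mrc1*. Between days 14 and 42 it fell by 2.39 on the log2 scale (adjusted p = 1.26e-07). *Mgl2* (1.12) and *Clec10a* (1.43), both lectins of macrophages and dendritic cells, were higher on day 7 than in CTRL. *Pparg*, a lipid-sensing receptor of alveolar macrophages, was called from day 14 (0.30) to day 42 (0.59) and reached 0.78 on day 28.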
